A study of Caenorhabditis elegans with 3 samples.

Results

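The 10 genes described here encode proteins that build the eggshell of the nematode Caenorhabditis elegans or act at egg activation, the change of the fertilised oocyte into an embryo: cbd-1, egg-1, egg-2, egg-3, chs-1, perm-2, perm-4, cpg-1, cpg-2 and mbk-2. They were taken by name, as probes whose single gene symbol was one of these, and all 10 were found among 15168 named genes, each with 1 probe and a value on every array. RNA of TP09 adult hermaphrodites (TP09 is the submitters' code, which the labels do not explain) was set against wt mixed reference RNA on two-colour arrays, 1 adult prep on each of 3 arrays. The labels give no strain, genotype or adult age for the TP09 worms, and no make-up for the mixed reference beyond wild type, so a difference in strain, stage or tissue can enter each ratio. Nor do they say that the 3 preps were grown separately. The p-values therefore rest on the spread among these preps, which may be technical. They do not rest on a gene's own spread alone. The test draws each gene's variance toward that of all genes, with 5.3 prior against 2 residual degrees of freedom. The adult prep was in the second channel on every array. A difference between the channels at a probe thus cannot be told apart from one between adult and reference. Where it recurs on each array, it does not show in the spread among preps.

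Fertilisation in this worm takes place as the oocyte enters the spermatheca, and the eggshell is then laid down from the outside inwards. A vitelline layer present on the oocyte becomes the outer coat, chitin is made beneath it, and chondroitin proteoglycans released from cortical granules form a further layer. In the same period, a protein assembly at the oocyte cortex couples chitin synthesis to release of a kinase that starts the breakdown of oocyte proteins. Most of these gene products are made in the oocyte before fertilisation, so their transcripts are known from the hermaphrodite germline.

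Each value is a log2 ratio, adult over reference, after the array was centred on its median probe, so a value of 0 is the level ratio of the median probe and not an equal amount of RNA per worm. No label states which channel is on top of the ratio. Adult on top was treated as the likely direction, because the labels place the adult prep in the second channel and name it first. If it runs the other way, every sign in the text turns, and so does every order, rank and share of genes. Lists that hold none of the 10 genes were set beside this. They were chosen with earlier results of these data known, so they are no independent check of the direction. In them, 11 of 11 tested oocyte genes and 13 of 13 germline genes had positive ratios past the test. Of 20 larval epidermis genes, 12 had negative ratios past it and 1 a positive one. At 2.12 ± 0.15 (SD, n = 3), col-19, a collagen gene of the adult cuticle, was also positive; it was picked with its value known. Over all genes tested, 20.9% were higher and 23.5% lower by the same test. Early embryo markers were near these shares, with 2 of 10 higher and 3 lower. Of 12 sperm markers 2 were lower and 10 did not pass. Yolk genes, which mark the adult hermaphrodite intestine, had 1 of 3 higher, and neuron markers had 8 of 11 lower. In RNA from whole animals, fewer cells of a type and less RNA per cell cannot be told apart.

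Of the 10 genes, 8 were higher in TP09 adults than in the reference RNA, 1 was lower (egg-1) and 1 did not pass the test (cpg-2). The test was limma against a log2 ratio of 0, with Benjamini-Hochberg adjustment over all 15092 genes tested and a threshold of 0.05. By the same test 44.4% of all genes passed, 20.9% as higher and 23.5% as lower, so a call on a single gene was common in these data. Their median log2 ratio was 1.01, against -0.02 over all genes tested. Tested against a 1.5-fold change, 5 of the 10 were called higher (cbd-1, cpg-1, chs-1, egg-3 and egg-2), where 6.04% of all genes were called higher.

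**Figure D1:**
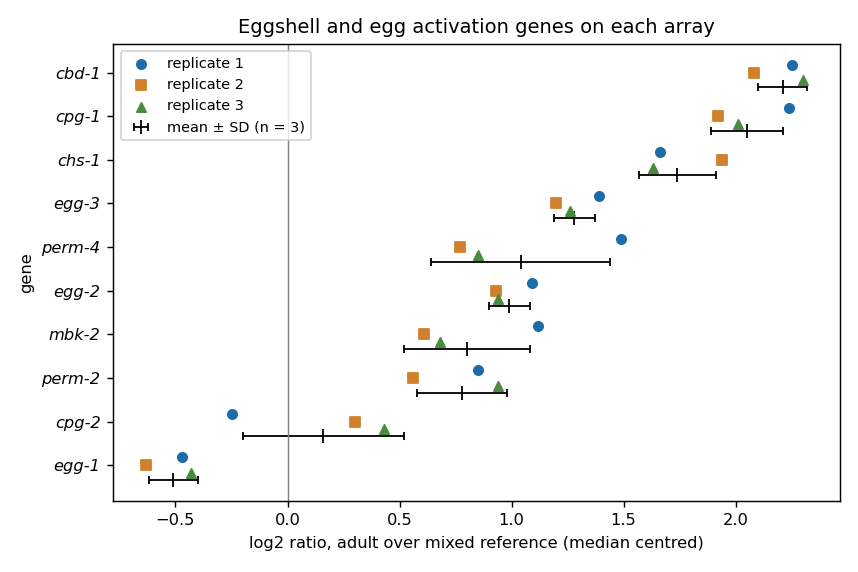
Log2 ratio of adult over mixed reference (horizontal axis) for each of the 10 genes (rows), with 1 point per replicate array and the mean ± SD over 3 arrays beneath. The 8 higher genes lie right of 0 on every array, cpg-2 spans 0, and egg-1 lies left of 0 on every array.

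The gene with the highest ratio was cbd-1 (H02I12.1), which encodes a chitin-binding protein of the vitelline layer that the other coat and egg activation proteins assemble on. Its log2 ratios were 2.25, 2.08 and 2.30 on replicates 1, 2 and 3. All arrays placed it far above 0, and it led the 10 genes on each of them. Its mean was 2.21 ± 0.11 (SD, n = 3), a 4.62-fold higher level in adults with a 95% confidence interval of 3.78 to 5.65 (adjusted p = 3.53e-05, limma). It ranked 31 from the top of the 15092 genes, which would be 31 from the bottom with the ratio turned.

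The other vitelline layer genes, perm-2 (C44B12.1) and perm-4 (C44B12.5), had smaller ratios. They encode proteins that partner cbd-1's product in the coat and are needed for the later permeability barrier. The log2 ratios of perm-4 were 1.49, 0.77 and 0.85 on replicates 1 to 3. Replicate 1 stood well above the other arrays, and the SD of 0.40 was larger than that of 84.3% of genes. The mean of 1.04 was a 2.05-fold higher level (adjusted p = 0.00203). For perm-2 the log2 ratios were 0.85, 0.56 and 0.94, all above 0, with replicate 2 the lowest. Its mean was 0.78 ± 0.20 (SD, n = 3), or 1.72-fold (adjusted p = 0.00249).

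The pair lie next to each other in the WBcel235 RefSeq gene table. The difference in log2 ratio, perm-2 minus perm-4, was -0.65, -0.21 and 0.09 on replicates 1 to 3. Its mean of -0.26 ± 0.37 (SD, n = 3) was within the spread between arrays (two-sided exact sign-flip permutation test, p = 0.5). With 3 arrays this test cannot give a p below 0.25. The genes flanking the pair, srx-13 and C44B12.6, stood at 0.17 ± 0.15 and 0.21 ± 0.15 and did not pass. Flanking genes were looked up after the members' values were seen.

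Chitin itself is polymerised by chitin synthase, and chs-1 (T25G3.2) encodes the enzyme that makes it for the eggshell. Its log2 ratios were 1.66, 1.94 and 1.63 on replicates 1 to 3. They lay close together, with replicate 2 the highest, the only one of the 10 genes for which that array was highest. The mean was 1.74 ± 0.17 (SD, n = 3), a 3.35-fold higher level (95% confidence interval 2.71 to 4.14, adjusted p = 8.96e-05), at rank 100 from the top (100 from the bottom with the ratio turned). The second chitin synthase gene of the worm, chs-2, which serves the pharynx, stood at 0.09 ± 0.29 and did not pass (adjusted p = 0.672). The difference between the chs genes was not tested.

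Inside the chitin lie chitin-binding chondroitin proteoglycans, and the genes for these, cpg-1 (C07G2.1) and cpg-2 (B0280.5), differed widely. For cpg-1 the log2 ratios were 2.24, 1.92 and 2.01 on replicates 1 to 3. All were far above 0, and the mean of 2.05 ± 0.16 (SD, n = 3) was a 4.15-fold higher level (95% confidence interval 3.37 to 5.12, adjusted p = 5.42e-05). For cpg-2 they were -0.25, 0.30 and 0.43. Replicate 1 lay below 0 and the other arrays above it. The mean of 0.16 ± 0.36 (SD, n = 3) did not pass (adjusted p = 0.471), and its 95% confidence interval of -0.22 to 0.54 leaves both directions possible. Without replicate 1 the mean was 0.36 and passed (adjusted p = 0.0424), while it was 0.09 without replicate 2 (adjusted p = 0.786) and 0.02 without replicate 3 (adjusted p = 0.959).

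On every array cpg-2 lay below cpg-1. The difference in log2 ratio, cpg-2 minus cpg-1, was -2.49, -1.62 and -1.58 on replicates 1 to 3, with a mean of -1.90 ± 0.51 (SD, n = 3; two-sided exact sign-flip permutation test, p = 0.25, the smallest that 3 arrays allow). These products are known to act redundantly in the shell. The adult to reference ratios of their transcripts lay 3.72-fold apart.

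The oocyte surface proteins made from egg-1 (B0244.8) and egg-2 (R01H2.3) carry LDL-receptor repeats and are needed for the sperm to enter. For egg-2 the log2 ratios were 1.09, 0.93 and 0.94 on replicates 1 to 3. For egg-1 they were -0.47, -0.63 and -0.43. The first gene lay above 0 and the second below 0 on all arrays, with little spread in either. The mean of egg-2 was 0.99 ± 0.09 (SD, n = 3), a 1.98-fold higher level (adjusted p = 0.000596). The mean of egg-1 was -0.51 ± 0.11 (SD, n = 3), a 1.42-fold lower level in adults (95% confidence interval 1.16 to 1.74, adjusted p = 0.0123). The call for egg-1 was lost without replicate 2 (adjusted p = 0.0829) and without replicate 3 (adjusted p = 0.0624), though the ratio stayed negative.

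The difference in log2 ratio, egg-2 minus egg-1, was 1.56, 1.56 and 1.37, and its mean of 1.5 ± 0.11 (SD, n = 3) corresponds to 2.82-fold (two-sided exact sign-flip permutation test, p = 0.25, the smallest possible). The products are similar in sequence, and related genes can share signal on an array. Which part of each probe's signal came from the other gene was not tested. In the gene table egg-1 is followed by B0244.9, which stood at 1.49 ± 0.05 (SD, n = 3; adjusted p = 0.000118), and preceded by wrm-1, at -0.14 ± 0.82.

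**Figure D2:**
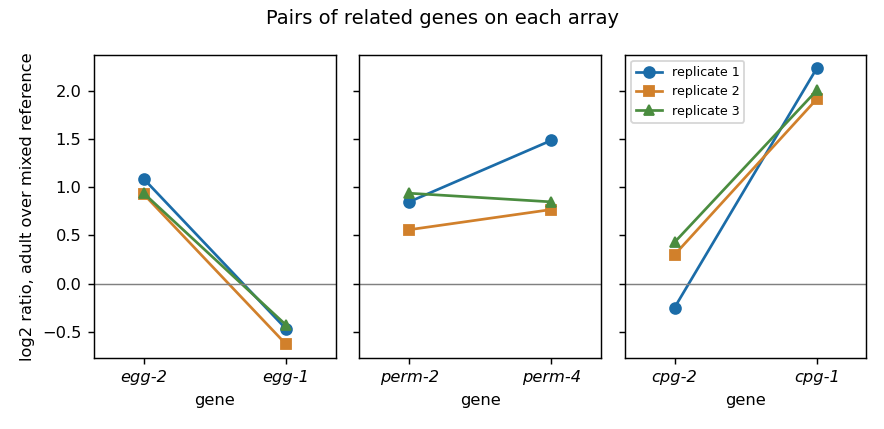
Log2 ratio of adult over mixed reference (vertical axis) for 3 pairs of related genes, with 1 line per replicate array joining the genes of a pair. The lines for egg-2 and egg-1 and for cpg-2 and cpg-1 slope the same way on every array, while those for perm-2 and perm-4 do not.

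At the cortex, egg-3 (F44F4.2) encodes a catalytically inactive phosphatase-like protein that holds the chitin synthase and the kinase in place until egg activation. Its log2 ratios were 1.39, 1.20 and 1.26 on replicates 1 to 3. They lay in a narrow range, well above 0. The mean was 1.28 ± 0.09 (SD, n = 3), or 2.43-fold (95% confidence interval 1.99 to 2.97, adjusted p = 0.00021).

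The kinase is the product of mbk-2 (F49E11.1), a DYRK-family enzyme that marks oocyte proteins such as OMA-1 and MEI-1 for destruction. Its log2 ratios were 1.12, 0.61 and 0.68 on replicates 1 to 3. All lay above 0, with replicate 1 apart from the others. The mean of 0.80 ± 0.28 (SD, n = 3) was a 1.74-fold higher level (adjusted p = 0.00336), and it did not pass against a 1.5-fold change (adjusted p = 0.389). Its nearest measured flanking gene, F49E11.2, stood at -0.33 ± 0.14 and did not pass.

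The order of the 10 mean ratios was cbd-1, cpg-1, chs-1, egg-3, perm-4, egg-2, mbk-2, perm-2, cpg-2 and egg-1. On each array cbd-1 was first, cpg-2 ninth and egg-1 last, while cpg-1 and chs-1 exchanged places on replicate 2. From egg-3 down to perm-2, no gene differed from the next by more than 1 SD of their difference over the arrays. The gap from perm-2 to cpg-2 was 0.62 ± 0.43, and that from cpg-2 to egg-1 was 0.67 ± 0.40, both with 1 direction on 3 of 3 arrays. At the upper end, cbd-1 exceeded cpg-1 by 0.15 ± 0.14, hardly more than the spread. These are ratios to the reference and say nothing of which transcript was more abundant.

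**Figure D3:**
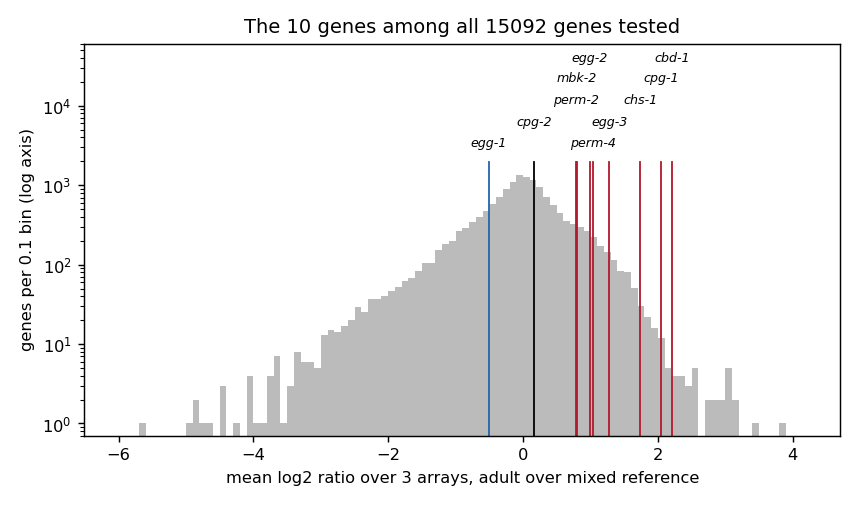
Mean log2 ratio of adult over mixed reference (horizontal axis) against the number of genes per bin of 0.1 (vertical log axis) for 15092 genes, with a line for each of the 10 genes (red, higher; blue, lower; black, not passed). The lines of cbd-1 and cpg-1 stand in the sparse upper tail, and that of cpg-2 near the peak.

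Relative to all genes, cbd-1 lay at or above 99.7% to 99.8% of genes on each array, and perm-2 at or above 83.8% to 90.8%. With the ratio turned these shares would be 0.232% to 0.265% for cbd-1 and 9.20% to 16.2% for perm-2. By contrast cpg-2 lay at 36.8% on replicate 1, against 74.0% and 78.2% on replicates 2 and 3 (63.3%, 26.0% and 21.8% with the ratio turned). Of the 10 genes, 3 had an SD above the median of all genes (0.215 on the log2 scale), namely perm-4, cpg-2 and mbk-2, and in each of these replicate 1 was the array that stood apart. Replicate 1 also differed most from the other arrays over all genes (r = 0.82 and 0.85 with replicates 2 and 3, which had r = 0.92 with each other, across genes that are not independent replicates), and its deviation followed the position of a probe in the table. In 32 equal runs of rows, its median deviation went with the place of a run in each group of 4, with means of 0.24, 0.06, -0.15 and -0.24. The probe of perm-4 lay in position 1, that of mbk-2 in position 2 and that of cpg-2 in position 3. Of the other genes, egg-3 in position 1 had a replicate 1 deviation of 0.15, the same sign as its position. The sign was opposite for chs-1 in position 2 (-0.12) and for perm-2 (0.1) and egg-1 (0.06) in position 3. It was also opposite for cbd-1 (0.06), cpg-1 (0.27) and egg-2 (0.15) in position 4.

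Centred by these positions, replicate 1 read 1.21 for perm-4, 0.99 for mbk-2 and -0.12 for cpg-2, still above the other arrays for perm-4 and mbk-2 and below them for cpg-2. The SD over arrays was then 0.23, 0.21 and 0.28, a fall for these 3 genes. For 6 of the 10 genes it was larger with that centring (0.20 against 0.11 for cbd-1, 0.29 against 0.16 for cpg-1 and 0.22 against 0.09 for egg-2 among them), and for egg-3 it was 0.09 either way. All calls on the 10 genes were as before with that centring (8 higher and 1 lower). Replicate 2 gave the lowest value for 8 of the 10 genes. Its ratios were also the most compressed over all genes, with a median absolute log2 ratio of 0.33, against 0.48 on replicate 1 and 0.38 on replicate 3. Among those 8 genes is egg-1, whose replicate 2 value of -0.63 was its furthest from 0. A link between the low values and the compression was not tested.

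Other genes of eggshell synthesis were higher too, from a list chosen with earlier results of these data known, like the other lists here. Of 19 tested, 14 were higher and 5 did not pass, where 20.9% of all genes tested were higher. The median of the list was 0.65. The highest was cpg-4, a further chondroitin proteoglycan gene, at 1.78 ± 0.17 (SD, n = 3; log2 ratios of 1.92, 1.59 and 1.82). It was followed by gfat-1 at 1.67 ± 0.32 and gfat-2 at 1.54 ± 0.23, which encode the enzyme that starts the supply of amino sugar for chitin. Further along that supply, gna-2, which makes N-acetylglucosamine phosphate, was 1.99-fold higher, at 0.99 ± 0.08, while gna-1, the other gene for this step, stood at 0.24 ± 0.16 and did not pass (adjusted p = 0.166). The chondroitin chain synthase gene sqv-5 was at 1.36 ± 0.05, and its partner mig-22 at 1.01 ± 0.12. Of the same pathway, sqv-4 at 0.73 ± 0.36, sqv-1 at 0.62 ± 0.18 and sqv-3 at 0.45 ± 0.19 were also higher. In contrast, sqv-7 at -0.05 ± 0.44 and sqv-8 at 0.05 ± 0.41 did not pass. For the lipid-based barrier, the fatty acid synthase gene fasn-1 was at 0.65 ± 0.17 and the acetyl-CoA carboxylase gene pod-2 at 0.95 ± 0.41. On the same list, perm-1 was higher at 1.17 ± 0.29, and emb-8 passed narrowly at 0.36 ± 0.07 (limma, adjusted p = 0.046). At 0.38 ± 0.23, perm-5 did not pass (limma, adjusted p = 0.0602). The proteoglycan genes cpg-3 and cpg-8 stood at 0.47 ± 0.08, past the test, and -0.15 ± 0.30, not past it.

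Partners of egg activation had a median of 1.46. Of 17 tested, 14 were higher and 3 did not pass, where 20.9% of all genes tested were higher. The genes oma-1, oma-2 and lin-41 are also among the oocyte markers above. The RNA-binding protein gene mex-1 was at 2.00 ± 0.05, or 3.99-fold higher, and mex-5, which sets up polarity in the zygote, was at 1.73 ± 0.13. The pseudophosphatase gene egg-4, whose product restrains the mbk-2 kinase, was at 1.72 ± 0.12, with 1.63, 1.66 and 1.85 on replicates 1 to 3. It has a close copy, egg-5, so the signal may be shared. Genes of kinase substrates were also higher, with oma-1 at 1.54 ± 0.24 and mei-1 at 1.4 ± 0.15. The genes mel-26 and rfl-1, for the ubiquitin machinery that removes MEI-1, stood at 0.23 ± 0.23 and 0.20 ± 0.13 and did not pass. The third gene not past the test was spe-11, whose product the sperm supplies, at -0.61 ± 0.76 with -1.48 on replicate 1.

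Genes of the meiotic divisions that run beside shell formation had a median of 0.66. Of 18 tested, 12 were higher and 6 did not pass, where 20.9% of all genes tested were higher. The list was led by the cyclin gene cyb-3 at 1.69 ± 0.28, the inhibitory kinase gene wee-1.3 at 1.57 ± 0.19 and the anaphase activator gene fzy-1 at 1.37 ± 0.12. The cyclin gene cyb-1 stood at 0.02 ± 0.17.

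Genes for the trafficking of cortical granules were not called, where 44.4% of all genes tested were. Of 5 tested, 0 passed by limma (0 at an unadjusted p under 0.05), with means from -0.11 (rab-6.2) to 0.15 (cav-1), and snap-29 at -0.10. Most of them serve membrane traffic in many cells. Among 6 tested factors that sperm contribute to fertilisation, 0 passed by limma (1 at an unadjusted p under 0.05), with a median of -0.13. Their extremes were spe-41 at 0.25 ± 0.23 and spe-11, and spe-49 stood at -0.35 ± 0.49. Outside the eggshell, the chitinase genes went both ways: cht-3 was at 0.50 ± 0.03 (adjusted p = 0.0117), cht-2 at -0.96 ± 0.45 (adjusted p = 0.00405), and cht-1 at 0.65 ± 0.80 did not pass. No test compared these lists with one another. With only 5 and 6 genes tested, a count of 0 is weak beside the share over all genes.

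**Figure D4:**
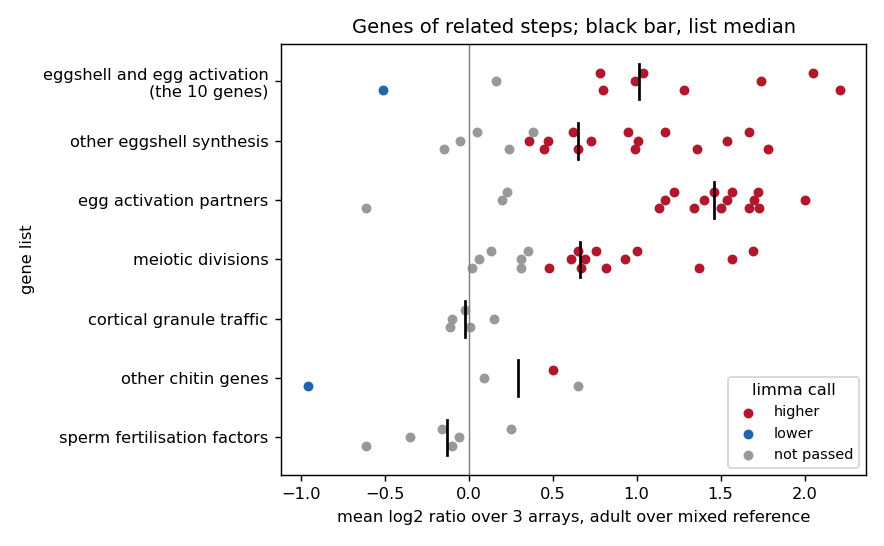
Mean log2 ratio of adult over mixed reference (horizontal axis) for each tested gene of 7 lists (rows), coloured by its limma call, with a black bar at the list median. The 10 eggshell and egg activation genes have a median of 1.01 and the egg activation partners one of 1.46, while cortical granule traffic lies around -0.02.

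Of 16 tested genes next to a member in the gene table, 2 were higher (sec-31 beside cbd-1, and B0244.9 beside egg-1), 3 were lower and 11 did not pass. Their median was 0.06. The lower ones were ins-17 beside cpg-1, at -1.08 ± 0.07, R01H2.4 beside egg-2, at -0.70 ± 0.40, and F44F4.3 beside egg-3, at -0.48 ± 0.29. By the same test 20.9% of all genes were higher and 23.5% lower, so calls like these were common.

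The genes whose ratios were nearest to those of a member over the 3 arrays, by Euclidean distance, were F13H8.3 for cbd-1 (distance 0.15), npp-9 for cpg-1 (0.172), ddx-19 for chs-1 (0.128), scc-3 for egg-3 (0.0358), dnj-23 for egg-2 (0.0312), unc-85 for perm-4 (0.0603), F37A4.1 for mbk-2 (0.0259), C16A11.2 for perm-2 (0.0483), T21G5.1 for cpg-2 (0.0246) and unc-29 for egg-1 (0.0297). A likeness over 3 replicates of 1 group mostly reflects the mean ratio.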

How the data were processed

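The deposited table holds 1 value per probe and array, for 20000 probes on 3 two-colour arrays. That these deposited values are log2 ratios was worked out from the values: read as log2, 100% of the 58013 values nearer to 0 than 2 gave ratios with 3 decimals (tolerance 0.005 of a thousandth), against 0.974% as natural log and 1.08% as log10. The sources used here do not give how the authors normalized, filtered or background-corrected them. No signal intensities were used, so no probe could be called above background and the number of arrays limits the precision. Values were missing for 101, 193 and 156 probes. GEO's platform annotation gave the probe names (15655 with 1 symbol, 198 with several, 4147 with none), and 15569 matched the WBcel235 RefSeq gene table. Each array was centred on its median, values of probes for the same gene were averaged, and 15092 genes complete on 3 arrays were tested with limma 3.58.1 in R 4.3.3 (intercept, eBayes, 2 residual and 5.3 prior degrees of freedom, Benjamini-Hochberg). The test leaves out the reference's own spread. The code was tested on simulated data.

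The members and lists were chosen with earlier results of these data known. Named genes were the 10 members, the 3 genes of each related list with the largest absolute mean, and the gene nearest to each member; others were picked with their values known. The alternatives changed the centring (none, scale, quantile, by 32 runs of rows, by 4 positions), the genes tested (at least 2 arrays, single probes, unnamed probes too) and the fit (robust prior, array weights, treat against a 1.5-fold change, each replicate left out).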

Additional observations from a re-analysis of the deposited data

How the results depend on the processing

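Of 140 values of the 10 genes under 14 alternatives, 132 kept their direction and their side of the threshold and none changed direction. Not all of these values could change direction. Each gene has 1 probe with a value on every array, so changing the genes tested left its mean as it was. The robust prior and treat did so too, and under these alternatives only the p-value could move. Of the others, 6 lost a call and 2 gained one. The 8 higher genes passed in all 13 alternatives other than treat against a 1.5-fold change, with the highest adjusted p at 0.0196 (perm-2 without replicate 3). Treat, which asks for a larger effect, called 5 of the 10 genes higher and 0 lower (by limma's treat; 6 higher and 0 lower at an unadjusted p under 0.05), and 2076 of all genes; egg-1, perm-2, perm-4 and mbk-2 lost their calls. Leaving out 1 replicate gave 8 to 9 higher and 0 to 1 lower genes, since egg-1 did not pass without replicate 2 or 3 (limma; 1 lower gene at an unadjusted p under 0.05 in both). Over all alternatives but treat the adjusted p of egg-1 was 0.00292 to 0.0829. The gene cpg-2 passed as higher with array weights (0.33, adjusted p = 0.038), which gave replicate 1 a weight of 0.372. With these weights 8309 of all 15092 genes were called, against 6698 in the main setting. It also passed without replicate 1 (0.36, adjusted p = 0.0424), and the adjusted p of cpg-2 was 0.038 to 0.959 over all alternatives but treat. The differences between paired genes moved by less than their SD under each alternative run on them, and leaving out 1 replicate gave 4948 to 7102 genes called of all. No pairing of arrays between groups was possible because the arrays form 1 group. With 1 array left out, 1 residual degree of freedom remains per gene.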
